A study of Mus musculus with 11 samples.

Results

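The cytosolic ribosomal protein genes were taken as rows of the count table by their whole gene symbol. It had to be Rpl or Rps with a number, optionally followed by a letter and further digits, or *Rplp0*, *Rplp1*, *Rplp2* or *Rpsa*. Of the 55401 rows, 89 met that rule. GENCODE annotates 83 of the 89 rows as protein coding and 6 as processed pseudogenes (*Rpl32l*, *Rpl6l*, *Rps12l1*, *Rps3a2*, *Rps3a3* and *Rps4l*). The counts came from 11 poly(A) RNA-seq libraries of islet cells sorted by FACS from 4 male C57BL6/J mice on chow diet, aged 10 weeks by the sample labels. Every mouse carried RIP-Cre (Cre under the rat insulin promoter), a STOP-tdTomato allele that Cre switches on, and Nnat-EGFP, a transgene that reports activity of the *Nnat* promoter. Beta cells were sorted by EGFP, giving 4 libraries with the label NNAT-positive and 4 with the label NNAT-negative, and 3 more libraries held the non-beta cells. Libraries with the same number came from the same mouse, and no non-beta library of mouse 4 was among those analysed here. The beta cell fractions are named by their labels throughout, because *Nnat* itself ran against them, being lower in NNAT-positive than in NNAT-negative libraries in 4 of 4 mice, and the study's own table names the fractions the other way round. Comparisons of beta with non-beta cells do not depend on those names.

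Ribosomal proteins form the protein part of the large and the small ribosomal subunit, whose genes carry the prefixes Rpl and Rps, and each cytosolic ribosome holds about a single copy of nearly every one of them. Their mRNAs are among the most abundant of most cells and begin at the cap with a cytosine and a run of pyrimidines, through which mTOR and LARP1 adjust their translation. Some have a second expressed copy, or paralog, with its own tissue pattern, such as *Rpl3l* in striated muscle and *Rpl10l* in testis. Beta cells devote much of their translation to preproinsulin.

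Start regions were read from the RefSeq windows for GRCm38.p6, which matched 64 of the 89 members, 63 of them protein coding. The motif CCGGAAG, read on either strand within 250 bases before and 50 after the start, was present in 26 of these 63 genes (41.3%), against 9.93% of all 27025 genes. A cytosine followed by pyrimidines, at least 8 bases in all on the coding strand within 50 bases of the start, was present in 52 of the 63 (82.5%), against 32.0% of all genes. The first 4 windows below hold the motif close to the start and are shown because they let the motif and the pyrimidines be read together. The windows of *Rps27* and *Rpl7l1* do not hold it and are shown beside *Rps27l* for the comparison of paralogs. Each runs from 30 bases before the start through 30 bases from it, on the gene's strand, with CCGGAAG in capitals. *Rpl26* and *Rpl31* were chosen for display after their values were seen.
Rpl11, chr4:136053364-136053423 (minus strand): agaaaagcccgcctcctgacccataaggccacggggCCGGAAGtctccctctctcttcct
Rpl26, chr11:68901536-68901595 (plus strand): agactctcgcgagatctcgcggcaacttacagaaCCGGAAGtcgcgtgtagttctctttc
Rpl31, chr1:39367821-39367880 (plus strand): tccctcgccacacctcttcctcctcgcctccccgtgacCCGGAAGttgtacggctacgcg
Rps27l, chr9:66946056-66946115 (plus strand): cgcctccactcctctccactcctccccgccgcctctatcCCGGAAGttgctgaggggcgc
Rps27, chr3:90213619-90213678 (minus strand): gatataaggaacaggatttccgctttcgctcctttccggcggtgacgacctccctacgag
Rpl7l1, chr17:46782627-46782686 (minus strand): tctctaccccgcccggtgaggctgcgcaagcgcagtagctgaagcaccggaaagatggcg
The motif did not sort the members by their change between cell types. Among the protein-coding members tested, the median log2 fold change of beta against non-beta cells was −0.89 for 25 with the motif and −0.98 for 35 without it, and 22 and 32 of them respectively were lower in beta cells by the test described next.

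Total counts per library were between 30420352 and 43238376. Genes kept by filterByExpr of edgeR were tested with its quasi-likelihood test after TMM scaling, with the mouse as a block and Benjamini-Hochberg adjustment over all 17424 tested genes, and a gene was called at an adjusted *p* below 0.01 with no minimum fold change. Levels are given as CPM, counts scaled to a library of 1e+06 after TMM scaling. Summed over 4 alpha cell markers, the non-beta libraries held between 119567 and 167220 CPM and the beta cell libraries between 1053 and 3528 CPM. The 7 beta cell markers summed to between 161269 and 399378 CPM in beta cell libraries and to between 8962 and 23050 CPM in non-beta libraries. The non-beta libraries also held 12731 to 48998 CPM of 5 acinar markers and 6475 to 12841 CPM of 3 delta cell markers, which reached at most 1734 and 2412 CPM in beta cell libraries. They further held 2480 to 5745 CPM of 4 stromal and 1532 to 1743 CPM of 4 endothelial markers, against at most 2.33 and 5.06 CPM. The part of these other cells in the differences given here was not tested, and in bulk samples a different mix of cells and a different amount of RNA per cell cannot be told apart.

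Ribosomal protein genes took up a smaller share of the counts in beta cells than in non-beta cells. The 89 rows held 2.02%, 1.64% and 1.96% of all counts in the non-beta cells of mice 1, 2 and 3. In the same mice and mouse 4 they held 0.965%, 0.864%, 0.880% and 0.760% in the cells labelled NNAT-positive. They held 0.925%, 0.952%, 0.835% and 0.802% in those labelled NNAT-negative. Every beta cell library lay below every non-beta library, and the ranges of the beta cell fractions overlapped. The means were 1.88% ± 0.204 (SD, *n*=3) in non-beta cells, 0.867% ± 0.0842 (SD, *n*=4) in the fraction labelled NNAT-positive and 0.878% ± 0.0714 (SD, *n*=4) in that labelled NNAT-negative. Insulin transcripts were 17.8% to 34.4% of the counts in beta cell libraries, so the shares were also taken without *Ins1* and *Ins2*. They were then 1.90% ± 0.212 (SD, *n*=3) in non-beta cells and between 0.926% and 1.45% in beta cell libraries, still without overlap.

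**Figure D1:**
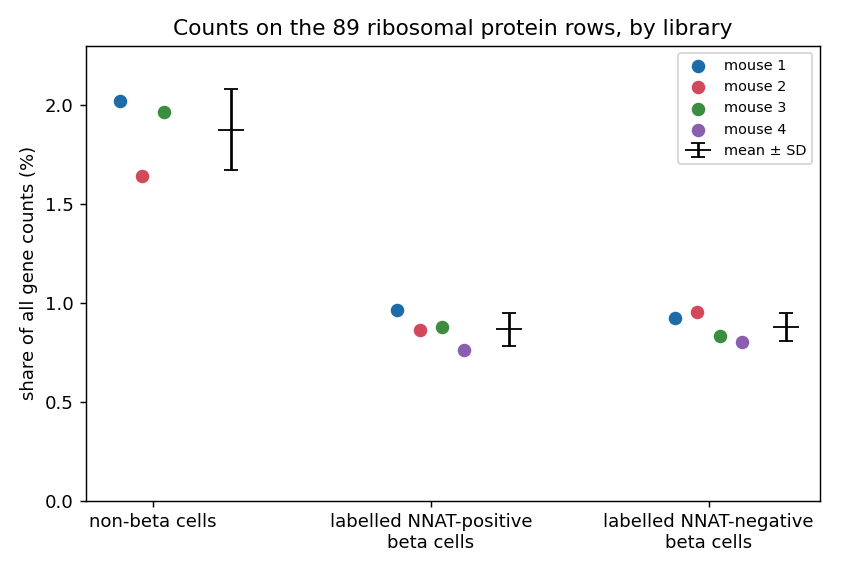
Share of all gene counts (%) on the 89 ribosomal protein rows in each library, by fraction, with mice in colours and the mean ± SD of each fraction in black. The non-beta libraries sit between 1.64% and 2.02%, the beta cell libraries between 0.760% and 0.965%, and mouse 4 is lowest in both beta cell fractions.

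Gene by gene, 73 of the 84 members tested were lower in beta than in non-beta cells and 0 were higher. Over all tested genes, 23.9% were lower and 17.2% higher. The median log2 fold change of the members was −0.93 (a 1.91-fold lower level), with an interquartile range from −1.06 to −0.73, against a median of −0.10 over all tested genes. Fold changes of called members ran from 1.22-fold to 3.15-fold lower, and 32 members were more than 2-fold lower, as were 18.9% of all tested genes. In 70 of the 84 members every beta cell library lay below every non-beta library, compared with 26.2% of all tested genes. Within mice, the median log2 difference of the members was −0.84 in mouse 1, −0.75 in mouse 2 and −1.08 in mouse 3. Over all tested genes it was −0.09, −0.14 and −0.06. Of the members, 78 were lower in 3 of 3 mice, a count not taken over all genes. Without mouse 3, which has the largest difference, 62 members were called lower, and the calls over all genes fell from 4157 to 3039.

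**Figure D2:**
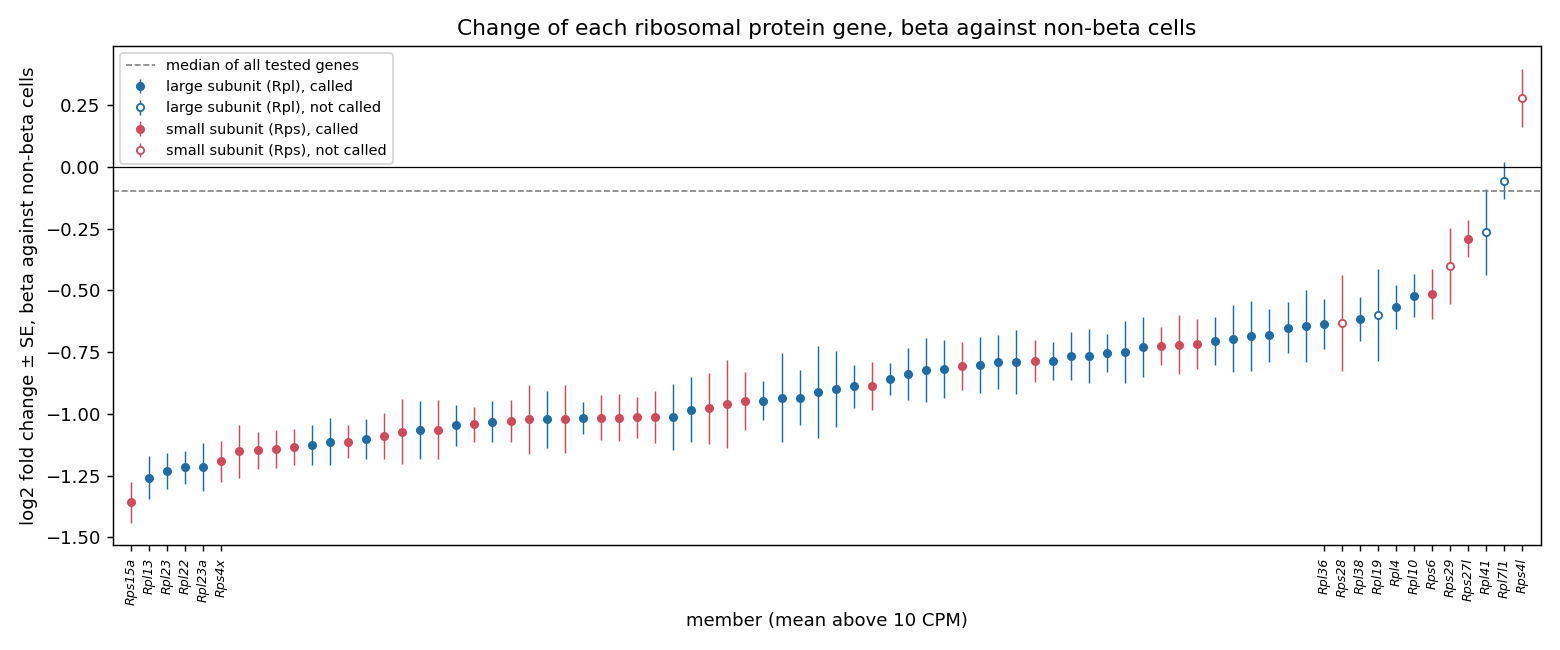
Log2 fold change ± SE of beta against non-beta cells for the 78 tested members with a mean above 10 CPM, ordered by value, named at both ends, coloured by subunit, with filled points for called genes and the dashed line at the median of all tested genes. Values run from −1.36 (*Rps15a*) to 0.28 (*Rps4l*), and 72 of the 78 points are filled.

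The lowest values among called members belonged to *Rpl13a*, *Rps15a*, *Rpl13*, *Rpl23*, *Rpl22* and *Rpl23a*. *Rps15a*, a small-subunit protein, had 139, 117 and 142 CPM in non-beta cells of mice 1 to 3. It had 54.4, 48.4, 52.0 and 35.7 CPM in mice 1 to 4 in the fraction labelled NNAT-positive and 50.7, 54.9, 49.5 and 32.6 CPM in that labelled NNAT-negative. The groups did not overlap, and the log2 fold change was −1.36 (SE 0.08, adjusted *p*=4.25e-07). *Rpl13*, of the large subunit, fell from 224 ± 7.93 CPM (SD, *n*=3) to 82.9 ± 15.8 and 89.6 ± 18.2 CPM (SD, *n*=4 each) in the fractions labelled NNAT-positive and NNAT-negative, with a log2 fold change of −1.26 (SE 0.09). *Rpl23*, a large-subunit protein that also binds MDM2, was at 257 ± 21.6 CPM in non-beta cells (SD, *n*=3), and its log2 fold change was −1.23 (SE 0.07). *Rpl23a*, at the exit of the nascent chain tunnel, had a log2 fold change of −1.22 (SE 0.10), but 55.3% of its coding bases are shared with genes of the opposite strand. *Rpl13a*, a large-subunit protein, had the largest value, −1.65 (SE 0.19). It was at only 15.9 ± 1.72 CPM in non-beta cells (SD, *n*=3), and 90.3% of its coding bases also belong to another gene on its strand.

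At the other end of the called members stood *Rps27l*, *Rps6*, *Rpl10*, *Rpl4*, *Rpl38* and *Rpl36*, which fell by less than the median member. *Rpl4*, the most abundant member, had 1122, 1021 and 1201 CPM in non-beta cells. It had 770, 708, 727 and 537 CPM in the fraction labelled NNAT-positive and 763, 808, 732 and 620 CPM in that labelled NNAT-negative. The groups did not overlap, and its log2 fold change was −0.57 (SE 0.09, adjusted *p*=0.000359). *Rps6*, the substrate of S6 kinase, had 114, 117 and 134 CPM in non-beta cells, 80.7, 71.8, 80.5 and 55.4 CPM in the fraction labelled NNAT-positive and 92.8, 107, 81.9 and 58.2 CPM in that labelled NNAT-negative. Its log2 fold change was −0.51 (SE 0.10, adjusted *p*=0.00171). The adjusted *p* was 0.0255 without mouse 3. *Rpl38*, which has been tied to translation of homeobox mRNAs, had −0.62 (SE 0.09), *Rpl36* had −0.64 (SE 0.10) and *Rpl10*, which helps to complete the large subunit, had −0.52 (SE 0.09).

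The remaining 11 tested members were not called. Of these, 5 had under 10 CPM, namely *Rpl24*, *Rps10* and the pseudogenes *Rpl6l*, *Rps3a2* and *Rps3a3*. Of the other 6, *Rpl7l1* and *Rps4l* are paralogs described next, and *Rpl41*, *Rps29*, *Rps28* and *Rpl19*, named after their values were seen, had log2 fold changes from −0.26 to −0.63. *Rpl41*, which encodes the shortest ribosomal protein, was at 275, 274 and 338 CPM in non-beta cells and between 175 and 384 CPM in beta cell libraries. The groups overlapped only through the 384 CPM of the library labelled NNAT-negative of mouse 2 (log2 fold change −0.26, SE 0.17, adjusted *p*=0.235).

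Of the 7 paralog pairs, 3 had a second copy that was practically silent. *Rpl3l* and *Rpl10l* had 0 counts in each of the 11 libraries, and 3 counts, the limit that a count of 0 allows, would be between 0.0649 and 0.102 CPM per library. *Rpl39l* had 3 counts in all, in 2 libraries labelled NNAT-positive. Their core partners were well measured. *Rpl3* was at 283 ± 38.7 CPM in non-beta cells (SD, *n*=3) and had a log2 fold change of −0.68 (SE 0.11). *Rpl39* was at 50.2 ± 8.84 CPM (SD, *n*=3) and had −0.64 (SE 0.15).

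The other 4 paralogs were expressed, and in 3 of 3 mice each was higher relative to its core partner in beta than in non-beta cells. *Rpl7l1*, a large-subunit paralog found in pre-ribosomes, had 60.1, 58.7 and 60.5 CPM in non-beta cells. It had 54.7, 62.4, 60.9 and 51.2 CPM in the fraction labelled NNAT-positive and 52.2, 55.0, 60.7 and 51.5 CPM in that labelled NNAT-negative, so the fractions overlapped (log2 fold change −0.05, SE 0.07, adjusted *p*=0.576). *Rpl7* itself changed by −1.10 on the log2 scale (SE 0.08, adjusted *p*=1.66e-06). Counts of *Rpl7l1* were thus 11.5% to 12.6% of those of *Rpl7* in non-beta cells and 21.2% to 33.5% in beta cell libraries.

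*Rps27l*, a p53 target, had 48.6, 48.2 and 58.6 CPM in non-beta cells and between 33.1 and 48.3 CPM in beta cell libraries, which overlapped by the highest of them. Its log2 fold change was −0.29 (SE 0.08, adjusted *p*=0.00874), and this call was lost without any single mouse, with adjusted *p* from 0.0153 to 0.0761. *Rps27* had −1.01 (SE 0.10, adjusted *p*=1.92e-05). The count of *Rps27l* was 24.7% to 28.4% of that of *Rps27* in non-beta cells and 34.0% to 60.9% in beta cell libraries.

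*Rps4l*, on chromosome 6 and annotated as a transcribed processed pseudogene, is a copy of the X-linked *Rps4x*. It had 36.6, 32.0 and 49.4 CPM in non-beta cells and between 34.0 and 59.0 CPM in beta cell libraries, with overlap. It was the only tested member with a positive log2 fold change, 0.28 (SE 0.12, adjusted *p*=0.0684), while *Rps4x* had −1.19 (SE 0.08, adjusted *p*=1.16e-06). Counts of *Rps4l* were 6.41% to 9.81% of those of *Rps4x* in non-beta cells and 16.0% to 28.5% in beta cell libraries. Reads that fit both copies may have been left out or split by the counting, so the ratio is uncertain.

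*Rpl22l1* was called together with its partner. It had 71.1, 77.2 and 70.6 CPM in non-beta cells and between 33.6 and 58.1 CPM in beta cell libraries, and its log2 fold change was −0.79 (SE 0.11, adjusted *p*=0.000163), against −1.22 (SE 0.07) for *Rpl22*, a large-subunit protein that represses *Rpl22l1* expression. The ranges of their count ratio overlapped, at 35.5% to 42.6% in non-beta cells and 38.6% to 85.7% in beta cell libraries. Averaged over mice 1 to 3, the ratio of paralog to core counts was higher in beta cells by 1.05 ± 0.0927 on the log2 scale for *Rpl7l1*, 0.73 ± 0.230 for *Rps27l*, 1.48 ± 0.268 for *Rps4l* and 0.42 ± 0.144 for *Rpl22l1* (SD, *n*=3). An exact two-sided sign-flip permutation test of 3 mice cannot go below *p*=0.25, the value found for each of these 4 ratios.

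**Figure D3:**
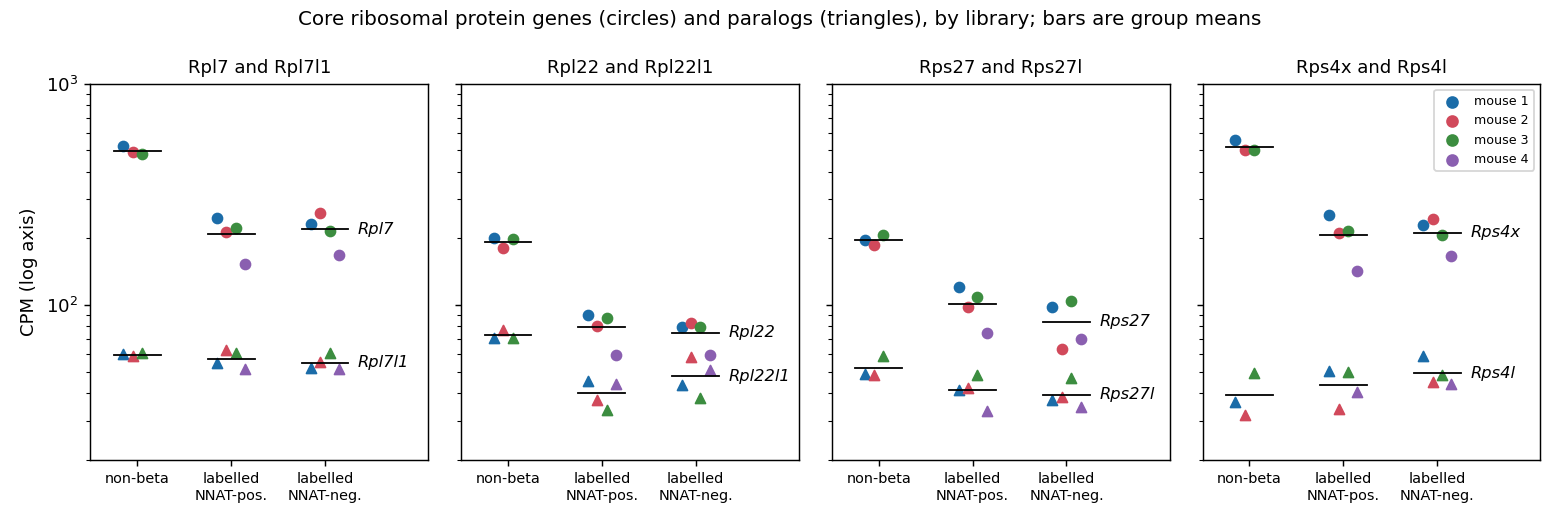
CPM (log axis) of 4 core genes (circles) and their paralogs (triangles) in each library, by fraction, with mice in colours and bars at the fraction means. *Rpl7*, *Rpl22*, *Rps27* and *Rps4x* drop from non-beta to beta cells, whereas *Rpl7l1* stays between 51.2 and 62.4 CPM in all libraries and *Rps4l* between 32.0 and 59.0 CPM.

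Members of the stalk and members with known roles outside the ribosome were also lower in beta cells. The stalk proteins recruit elongation factors: *Rplp0* was at 580 ± 55.6 CPM in non-beta cells (SD, *n*=3), 319 ± 56.4 in the fraction labelled NNAT-positive and 315 ± 48.8 in that labelled NNAT-negative (SD, *n*=4 each). Its log2 fold change was −0.75 (SE 0.08), that of *Rplp1* −0.80 (SE 0.11) and that of *Rplp2* −0.93 (SE 0.18). *Rpl5* and *Rpl11*, which with 5S rRNA bind MDM2, had −0.82 (SE 0.12) and −0.70 (SE 0.14). The adjusted *p* of *Rpl11* was 0.0016, and 0.0201 without mouse 3. *Rpsa*, also known as a laminin receptor, had −0.89 (SE 0.10), and *Rps27a*, which is made as a fusion with ubiquitin, had −0.81 (SE 0.10).

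Between the subunits, 44 of 49 tested Rpl rows and 29 of 35 Rps rows were lower in beta cells, against 23.9% of all tested genes. Their median log2 fold changes were −0.84 and −1.02. The summed CPM of Rpl rows was 1.17 to 1.25 times that of Rps rows in non-beta libraries and 1.30 to 1.46 times in beta cell libraries. Without *Rpl4*, the ratios were 1.03 to 1.11 and 1.12 to 1.25, still without overlap. Without *Rpl4* and *Rpl41* they were 1.00 to 1.07 and 1.07 to 1.19, and the ranges overlapped.

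Ribosomal protein genes that the symbol rule leaves out were looked at in the same way. *Rack1*, a scaffold on the small subunit, had 636 ± 34.9 CPM in non-beta cells (SD, *n*=3), and its log2 fold change was −1.13 (SE 0.08, adjusted *p*=9.17e-07). *Fau*, which encodes RPS30 fused to a ubiquitin-like protein, had −0.73 (SE 0.10, adjusted *p*=0.000175). *Rpl36al* and the *Rps27* retrocopy *Rps27rt* were at 1.41 and 4.87 CPM in non-beta cells and were not called (adjusted *p*=0.481 and 0.0473).

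Per kilobase of the principal GENCODE transcript, levels of the 80 protein-coding members tested had a median of 183 CPM per kb in non-beta cells and 90.9 and 95.9 CPM per kb in the fractions labelled NNAT-positive and NNAT-negative. *Rpl4* led in non-beta cells with 725 CPM per kb, beside *Rps15* with 725, *Rpl8* with 705 and *Rps14* with 694, values that lie within the spread between mice. These 3 were named after their levels were seen. The order was much the same in beta cells, with a Spearman correlation of 0.98 across the 80 genes, which share libraries and gene lengths and are not independent replicates. The level did not go with the change, with a Spearman correlation of −0.09 between the level in non-beta cells and the log2 fold change. Levels per kb depend on the transcript chosen, the longest principal one, which for *Rps15a* has 5179 bases with 390 coding bases in the gene. Their Spearman correlation with the number of rows named as pseudogenes of each member was −0.17. Loss of reads to such copies was not tested.

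Among the 80 protein-coding members tested, which leave out *Rpl3l*, *Rpl10l* and *Rpl39l*, the lowest levels belonged to 3, most of whose coding bases also lie in another gene on the same strand. The share was 83.4% for *Rpl24*, 80.1% for *Rps10* and 90.3% for *Rpl13a*, and 13.6% or less for the other 77. These 3 had means of 0.132, 0.249 and 15.9 CPM in non-beta cells, against 27.5 CPM or more for the other 77. *Rpl24* had 0 to 94 counts and *Rps10* 0 to 71 counts per library. Of the genes outside the rule, *Rpl36al* was shared by 95.3% and was also low. How the counting treated reads in such shared bases is not given in the sources used here, so the levels of these genes are uncertain.

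Each beta cell fraction was also compared with non-beta cells on its own. These comparisons share the 3 non-beta libraries. In the fraction labelled NNAT-positive, 72 members were lower and 0 higher, against 19.1% and 15.8% of all tested genes, with a median log2 fold change of −0.93. In the fraction labelled NNAT-negative, 69 were lower and 0 higher, against 21.3% and 15.6%, with a median of −0.88. *Rps6*, *Rpl39* and *Rpl35* were called in the first (log2 fold changes −0.63, −0.74 and −1.04, adjusted *p*=0.00134, 0.00412 and 0.00249) and not in the second (−0.40, −0.54 and −0.78, adjusted *p*=0.015, 0.0201 and 0.0126). The direct comparison of the fractions did not separate them (adjusted *p*=0.885, 0.918 and 0.918).

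Between the beta cell fractions, 0 of the 84 members were higher and 0 lower, against 0.0517% and 0% of all tested genes. Before adjustment, edgeR gave *p* below 0.05 for 3 members that were higher in the fraction labelled NNAT-positive and for 1 that was lower, as it did for 839 and 130 of all 17424 tested genes, and DESeq2 called 0 in either direction. The median log2 fold change of the members was −0.05, against 0.05 over all tested genes. The mice did not share its direction, and the difference was largest in mouse 2. Over 77 protein-coding members above 10 CPM, the median log2 difference was 0.09 in mouse 1, −0.29 in mouse 2, 0.06 in mouse 3 and −0.07 in mouse 4. Without the library labelled NNAT-negative of mouse 2, the median over the tested members became 0.05, and that of all genes is not given here for this setting.

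**Figure D4:**
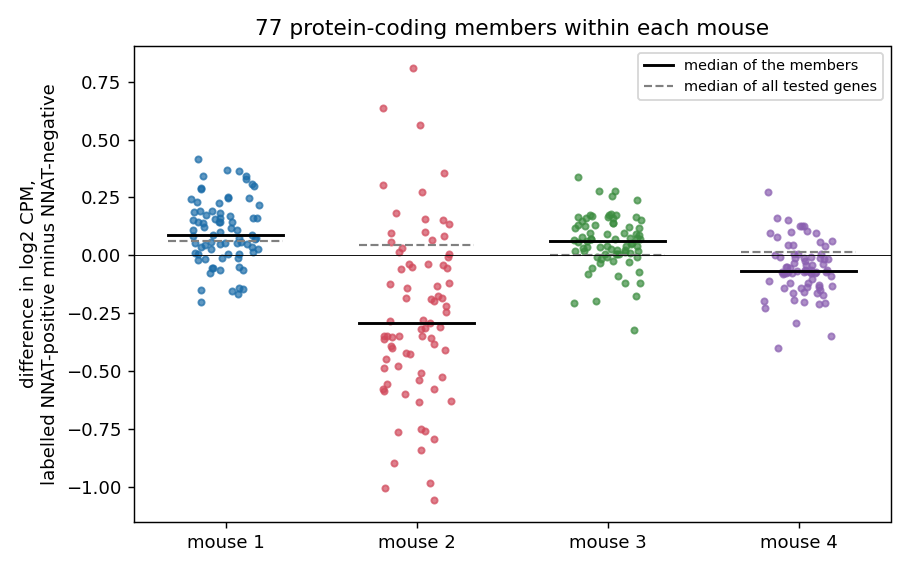
Difference in log2 CPM between the fractions labelled NNAT-positive and NNAT-negative of each mouse for 77 protein-coding members, 1 point per gene, with the members' median as a solid bar and that of all tested genes as a dashed bar. Points of mouse 2 reach from −1.06 to 0.81, and 18 of 77 lie above 0 there, against 61 in mouse 1, 60 in mouse 3 and 19 in mouse 4.

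The library labelled NNAT-negative of mouse 2 stood apart from the rest in its ribosomal protein genes. The SD of the 77 members' deviations from their fraction mean was 0.259 there and between 0.0917 and 0.165 in the other 10 libraries, on the log2 scale. Of the 77 members, 50 were higher there than in the other libraries labelled NNAT-negative and 3 were lower, counts not taken over all tested genes. This library also had the highest insulin share, 34.4% of its counts, and the lowest TMM factor, 0.870. *Rpl35* had 57.9 CPM there against 25.1 to 32.4 CPM in the others, and *Rplp2* had 184 against 72.6 to 116 CPM. In the opposite direction, *Rpl31* had 24.4 CPM against 33.7 to 46.1 CPM. *Rpl35* and *Rpl31* were named after their values were seen. Without this library, 76 members were lower in beta than in non-beta cells, as were 4127 of all genes.

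The largest and smallest values between the fractions belonged to rows with few counts, with *Rps10*, *Rpl6l* and *Rps3a2* at 1.22, 0.87 and 0.62 and *Rpl24* and *Rps3a3* at −2.68 and −1.05 on the log2 scale, and SEs from 0.60 to 2.21. *Rpl5* was the exception. Its level was 64.4, 56.0, 61.9 and 52.1 CPM in mice 1 to 4 in the fraction labelled NNAT-positive and 65.0, 83.9, 65.1 and 68.8 CPM in those labelled NNAT-negative. It was lower in the first in 4 of 4 mice, but by 0.01 in mouse 1, and the log2 fold change of −0.28 (SE 0.12) had an adjusted *p* of 0.885 in edgeR's test. In the other direction, 7 of the 84 tested members were higher in 4 of 4 mice, a count not taken over all tested genes. Among these 7 members, *Rps27* was at 0.27 on the log2 scale (SE 0.11, adjusted *p*=0.836), and *Rpl32*, named after its values were seen, had 0.18 (SE 0.07, adjusted *p*=0.775).

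Mouse 4 had the lowest levels of ribosomal protein genes. In 62 of the 84 tested members, both of its beta cell libraries lay below the other 6 beta cell libraries, a count not taken over all tested genes. The median deviation of the 77 members from their fraction mean was −0.35 and −0.34 on the log2 scale in its libraries labelled NNAT-positive and NNAT-negative, and between −0.01 and 0.26 in the other beta cell libraries. Over 9206 other genes, the SD of such deviations was also largest in mouse 4, at 0.480 and 0.477. In the other beta cell libraries it was 0.277 to 0.394, so mouse 4 stood apart beyond the ribosomal protein genes. Its libraries also held 1209 and 1054 CPM of the long RNA *Meg3*, against 18.6 to 40.5 CPM in the other beta cell libraries. With no non-beta library, mouse 4 enters the comparison with non-beta cells only through the fractions' own difference and the spread. Without it, 72 members were lower in beta cells, as were 3910 of all genes.

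Genes for making ribosomes were looked at in the same comparison. Of 40 genes of ribosome assembly and rRNA synthesis, 7 were higher and 5 lower in beta than in non-beta cells, where 17.2% of all tested genes were higher and 23.9% lower. Their median log2 fold change was −0.01, against −0.10 over all tested genes, and their difference from the ribosomal proteins was not tested. The 3 that rose most were *Wdr12*, of the PeBoW complex (0.79, SE 0.12), *Rrp12* (0.68, SE 0.13) and *Rrn3*, an initiation factor of RNA polymerase I (0.57, SE 0.09). Those that fell most were *Npm1*, the nucleolar chaperone nucleophosmin (−1.29, SE 0.09), *Nhp2* (−1.14, SE 0.20) and *Gar1* (−0.98, SE 0.19), both of H/ACA ribonucleoproteins. *Nop10* and *Dkc1*, also of these ribonucleoproteins, were named after their values were seen. In edgeR's test *Nop10* was higher in beta cells (0.48, SE 0.13, adjusted *p*=0.0091) and *Dkc1* was not called (−0.12, SE 0.15, adjusted *p*=0.549). *Npm1* went from 258 ± 31.3 CPM in non-beta cells (SD, *n*=3) to 103 ± 8.80 and 107 ± 5.72 CPM (SD, *n*=4 each) in the fractions labelled NNAT-positive and NNAT-negative.

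Of 15 genes that regulate ribosomal protein synthesis, 5 were higher and 3 lower in beta cells, against the same 17.2% and 23.9% of all tested genes. *Larp1*, which binds the pyrimidine start of these mRNAs, rose from 128 ± 6.91 CPM (SD, *n*=3) to 203 ± 21.2 and 215 ± 39.6 CPM (SD, *n*=4 each). The log2 fold change was 0.78 (SE 0.08, adjusted *p*=2.69e-05). *Larp4*, which binds poly(A) tails, rose by 0.78 (SE 0.09), and *Tsc1*, a brake on mTOR, by 0.72 (SE 0.10). *Mtor* itself rose by 0.67 (SE 0.10) and *Tsc2* by 0.45 (SE 0.07), both named after their values were seen. The 3 that fell were the transcription factor genes *Myc*, *Mycl* and *Mycn*. *Myc* was at 15.3 ± 7.94 CPM in non-beta cells (SD, *n*=3) and at 3.91 ± 3.67 and 4.51 ± 3.35 CPM (SD, *n*=4 each) in the beta cell fractions, and its log2 fold change was −2.54 (SE 0.27). Between the beta cell fractions, 0 genes of either list were called.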

How the data were processed

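Per the labels and the study's methods, RNA of sorted cells was turned into poly(A) libraries with a directional kit and sequenced. With STAR 2.7.1a, the authors aligned and counted reads per gene on mm10 with GENCODE genes, and they deposited these counts without normalisation. Whether the counting used the strand, and how it treated reads that fit several genes, is not given in the sources used here. The 202 rows without a symbol were kept in the library sizes. Of 55 library pairs, 0 held identical counts. The members and gene lists were chosen with earlier results of these data known.

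Counts were analysed in R 4.3.3 with edgeR 4.0.16 (TMM, filterByExpr by fraction, which kept 17424 genes, and quasi-likelihood tests with 5 residual degrees of freedom). The SE of a log2 fold change was its size over the square root of the *F* statistic. The libraries of mice 1 to 4 are paired because they come from the same animals, and deviations of the beta cell libraries of the same mouse correlated by 0.182 to 0.658, while those of beta with non-beta libraries of the same mouse correlated by only 0.0321 to 0.125, against at most 0.0931 between different mice. On simulated counts for 17139 genes in the comparison of beta with non-beta cells, 98 of 100 genes changed 2-fold and 44 of 100 changed 1.5-fold were recovered, with 0 unchanged genes called. The simulation gave every gene the same spread and changed few genes, unlike these data, so the recovery here may differ. Alternatives were DESeq2 1.42.0, other scalings, filters, thresholds and subsets of libraries. Named were the paralog and role lists, the 6 largest and 6 smallest log2 fold changes among called members, the 3 largest and 3 smallest between the beta cell fractions, the untested members, rows outside the rule, and the 3 largest and 3 smallest called genes of the other lists. Coordinates and overlaps came from GENCODE release M21 on GRCm38, not the release of the counting. Rows not tested were *Rpl3l*, *Rpl10l*, *Rpl39l*, *Rpl32l* and *Rps12l1*. A count of 3 was used as the floor. Some items covered by these rules are not reported here.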

Additional observations from a re-analysis of the deposited data

Results flagged for a closer look

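Among the named members, 68 groups of 4 libraries were examined for a library far from the other 3, by Dixon's ratio of the gap to the range, and 8 were found. Chance flags about 1 group in 20. In mouse 4, *Rplp0* was lower than in the other mice, at 236 CPM in the fraction labelled NNAT-positive (the others were at 336 to 356 CPM) and at 242 CPM in that labelled NNAT-negative (335 to 343 CPM). *Rpl22* was at 59.2 CPM in the library labelled NNAT-negative of mouse 4, and at 79.2 to 82.6 CPM in the other 3. *Rpl24* and *Rps10* stood higher in mouse 4. *Rpl24* had 1.37 CPM there in the fraction labelled NNAT-positive and 2.57 CPM in that labelled NNAT-negative, against at most 0.375 CPM elsewhere in these fractions. *Rps10* had 1.62 and 1.48 CPM, against at most 0.183 CPM. *Rpl11* was at 109 CPM in the library labelled NNAT-negative of mouse 2, against 81.2 to 84.5 CPM in the other 3.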

How the results depend on the processing

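No member was called in the opposite direction under the alternatives of tool, filter, factors or libraries, with the exception of *Rps4l* (0.54) when total counts without *Ins1* and *Ins2* set the scale. That scaling gave 1 member higher in beta than in non-beta cells and 1 higher in the fraction labelled NNAT-negative than in non-beta cells, and an adjusted *p* below 0.05 also gave 1 for the latter. Scaling moved the median of all genes, from −0.10 to 0.17 without the insulin genes and to −0.27 with total counts, and the members' median of −0.93 moved with it to −0.68 and −1.11. The members' median relative to all genes was −0.84, and −0.85 and −0.84 under those 2 scalings. A change of scale shifts all genes by nearly the same amount, so this relative value could hardly move under them. Over the 13 alternatives it ran from −0.68 without mouse 3 to −0.99 without the replicate block. Over all genes, the calls were 3002 higher and 4157 lower, 4590 and 3497 without the insulin genes, and 2076 and 4839 with total counts. A minimum change of 2-fold left 32 members lower in beta cells, 32 in the fraction labelled NNAT-positive and 28 in that labelled NNAT-negative. Leaving out each mouse gave 62 to 76 members lower in beta cells, 58 to 74 in the fraction labelled NNAT-positive and 50 to 75 in that labelled NNAT-negative. Over all genes, 3039 to 3910 were then lower in beta cells, and the counts for each fraction are not given here.

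Without the replicate block, 73 members were lower in beta cells, as were 3960 of all genes. Then 71 and 66 members were lower in the fractions labelled NNAT-positive and NNAT-negative. Counts over all genes for each fraction are not given here. The block changed no other call among named members than that of *Rps27l* (adjusted *p*=0.0372 without it in edgeR's test), and *Rpl24* and *Rps10*, never called, turned to 1.92 and 0.81. *Rpl7l1*, never called, was at 0.012 with upper-quartile factors and at 0.20 without the insulin genes. Leaving out each mouse moved *Rpl24* to values between −5.62 and 4.02 and *Rpl7l1* to values between −0.10 and 0.0058. Over the named members, 24 values of beta against non-beta cells lost their call, 1 gained it and 6 reversed, while 383 kept their direction and side of the threshold, as did 122 of 122 between the beta cell fractions.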

Other observations

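Rows named as pseudogenes of a member symbol by the suffix -ps, of which there were 319, together held 0.566% to 0.977% of the counts of the members. Some differed between mice in the same way in every fraction, and these were named after their values were seen. Non-beta libraries of mice 1, 2 and 3 held 2114, 45 and 1772 counts of *Rps18-ps6*. Libraries of mice 1 to 4 with the label NNAT-positive held 640, 26, 642 and 8 counts of it, and those with the label NNAT-negative 581, 56, 495 and 1. *Rps7-ps3* was low in mouse 1 instead, at 0.649 CPM in non-beta cells and 0.815 and 0.341 CPM in the beta cell fractions, against 2.38 to 22.0 CPM in the libraries of the other mice. *Rpl3-ps1* was highest in mouse 2 in each fraction, at 15.6, 10.1 and 6.33 CPM, against 0.646 to 3.76 CPM in the other libraries. Adding the counts of these rows to their members left 73 members lower in beta than in non-beta cells, as were 4164 of all genes.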
